A study of Mus musculus with 16 samples.

Results

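The 43 genes described here encode the machinery of DNA replication, from the proteins that license origins to the helicase, the polymerases, the sliding clamp, the enzymes that make nucleotides, a histone chaperone and the transcription factors E2F1 and E2F2. They were taken by gene symbol from a set list. All 43 were found among the 23234 named genes of the deposited expression table, and all 43 passed the filter on low values. Expression was measured in 16 RNA-seq libraries of antigen-specific donor B cells from mouse spleen, sorted into 6 gates on day 10 after immunisation. The donor cells were C57BL/6 B cells of the genotype Bcl6-YFP(KI/+) B1-8hi(KI/+), in which a yellow fluorescent reporter reads out Bcl6 and the knocked-in receptor heavy chain gives high affinity for the hapten NP. They had been transferred into wild-type CD45.1+ hosts immunised intraperitoneally with the protein conjugate NP-CGG in alum, and every gate carried the same alleles and treatment. All cells were CD45.2+, NP-binding, CD138- and IgG1+.

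The gates followed B cells of the germinal centre (GC), the site where activated B cells divide and are selected, and cells outside it that had moved towards memory. Fraction 7 (3 libraries) was CD38+GL7- with low Bcl6-YFP and low Efnb1, Fraction 6 (2 libraries) was CD38+GL7- with low Bcl6-YFP and high Efnb1, and Fraction 5 (3 libraries) was CD38+GL7- with high Bcl6-YFP and high Efnb1. Fraction 2 (2 libraries) and Fraction 3 (3 libraries) were light zone cells (CD38-, CD86 high, CXCR4 low) with high Bcl6-YFP, separated by high and low CD69. LZ (3 libraries) was the light zone gate without the Bcl6-YFP and CD69 steps, so that its cells can include those of Fractions 2 and 3. Splenocytes of 9 recipient mice were pooled for sorting, the ages of the animals are not given in the sources used here, and nothing states that libraries of a gate came from separate pools. The p-values below therefore measure the spread between libraries, which may be technical. The gates were sorted on the same day and are not a time course.

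A chromosome is copied once per cell cycle. Before S phase the origin recognition complex, with CDC6 and CDT1, loads the ring of MCM2 to MCM7 onto origins. MCM10 and the GINS complex then help to turn that ring into an active helicase, primase and the polymerases copy the strands, and the clamp PCNA holds the polymerases on DNA. Transcription of many of these genes is driven by E2F factors that are released from RB family proteins when a cell commits to S phase. Light zone B cells that receive T cell help re-enter the cycle, whereas memory B cells are largely resting.

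Values are FPKM, fragments scaled to transcript length and to the fragments mapped in the library, so that levels of different genes can be set side by side. Library sums of FPKM ran from 416741 to 492578, and between 10133 and 10552 genes reached 1 FPKM. True read numbers are unknown, so no counting interval can be given. The most common ratio between low values of LZ library 1 and those of each library put relative depth at 0.922 to 1.21 times that of LZ library 1. The B cell gene Cd79a, a signalling chain of the B cell receptor, was at 1105 to 1451 FPKM in Fraction 7 and at 856.9 to 1019 FPKM in LZ. Ms4a1, which encodes CD20, was at 491.6 to 592 FPKM in Fraction 7 and at 680.5 to 780.5 FPKM in LZ. T cell markers summed to at most 1.77 FPKM in any library. Fraction 7 libraries stood apart from each other in some plasma cell genes. Sdc1, which encodes CD138, was at 4.44 and 4.51 FPKM in Fraction 7 libraries 2 and 3 and at 0.502 FPKM in library 1. The joining chain gene Igj was at 296 and 292 FPKM in libraries 2 and 3 and at 46.9 FPKM in library 1. In libraries 1, 2 and 3, Xbp1 was at 34.0, 84.9 and 81.3 FPKM and Prdm1 at 1.37, 2.00 and 1.97 FPKM. The rest of the list did not follow: 2010001M09Rik (Mzb1) was at 235, 211 and 211 FPKM, Irf4 at 19.5, 20.6 and 21.4 FPKM and Tnfrsf17 at 3.02, 2.44 and 4.73 FPKM. Summed myeloid markers were 14.95 to 32.5 FPKM in Fraction 7, 4.94 to 12.6 FPKM in Fraction 6, 0.401 to 16.5 FPKM in Fraction 3 and 2.70 to 8.16 FPKM in LZ. Most of the Fraction 7 sum came from Itgam (12.8, 8.22 and 12.5 FPKM) and, in library 3, S100a8 (15.2 FPKM). There Lyz2 and Emr1 were at 1.08 to 3.34 FPKM, Csf1r at most 0.528 FPKM and Cd14 at 0. The part of these differences in the results below was not tested. Tyms and the median change of the replication genes are also given with library 1 as the only Fraction 7 library. Changes of other genes in Fraction 7 are given with all 3 libraries.

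Expression of the replication genes was lowest in Fraction 7, next lowest in Fraction 6, intermediate in Fraction 5 and high in all 3 light zone gates. Summed over the 43 genes, FPKM was 519 to 561 in Fraction 7, 736 to 771 in Fraction 6, 1277 to 1586 in Fraction 5, 3011 to 3077 in Fraction 2, 2650 to 2741 in Fraction 3 and 2488 to 2605 in LZ. Ranges of the gates did not overlap. Set as a percentage of the LZ mean of the same gene, the median over the 43 genes was 15.5% in Fraction 7, 27.8% in Fraction 6, 53.2% in Fraction 5, 123% in Fraction 2 and 106% in Fraction 3. In bulk libraries, fewer cells in cycle and less of these mRNAs in each cell cannot be told apart.

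For 38 of the 43 genes the group means stood in the order Fraction 7, Fraction 6, Fraction 5 and then the light zone gates, from low to high. Fraction 7 had the lowest mean of 39 genes and Fraction 6 that of the other 4 (Cdt1, Rpa2, Tyms and Tk1). Fraction 2 had the highest mean of 37 genes, the 6 others being Rfc1, Rfc2, Rfc3, Rpa1, E2f1 and E2f2. In Fraction 7, 8 genes were under 10% of their LZ mean (Orc1, Cdc6, Mcm5, Mcm10, Gins1, Lig1, Rrm2 and Chaf1a), 29 were under 25%, and 4 were at 50% or more (Gins4, Pold3, Tyms and E2f2). All 16 libraries had at least 1 FPKM for 39 of the genes, and Orc1, Cdc6, Mcm10 and Gins1 were under 1 FPKM in some library.

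**Figure D1:**
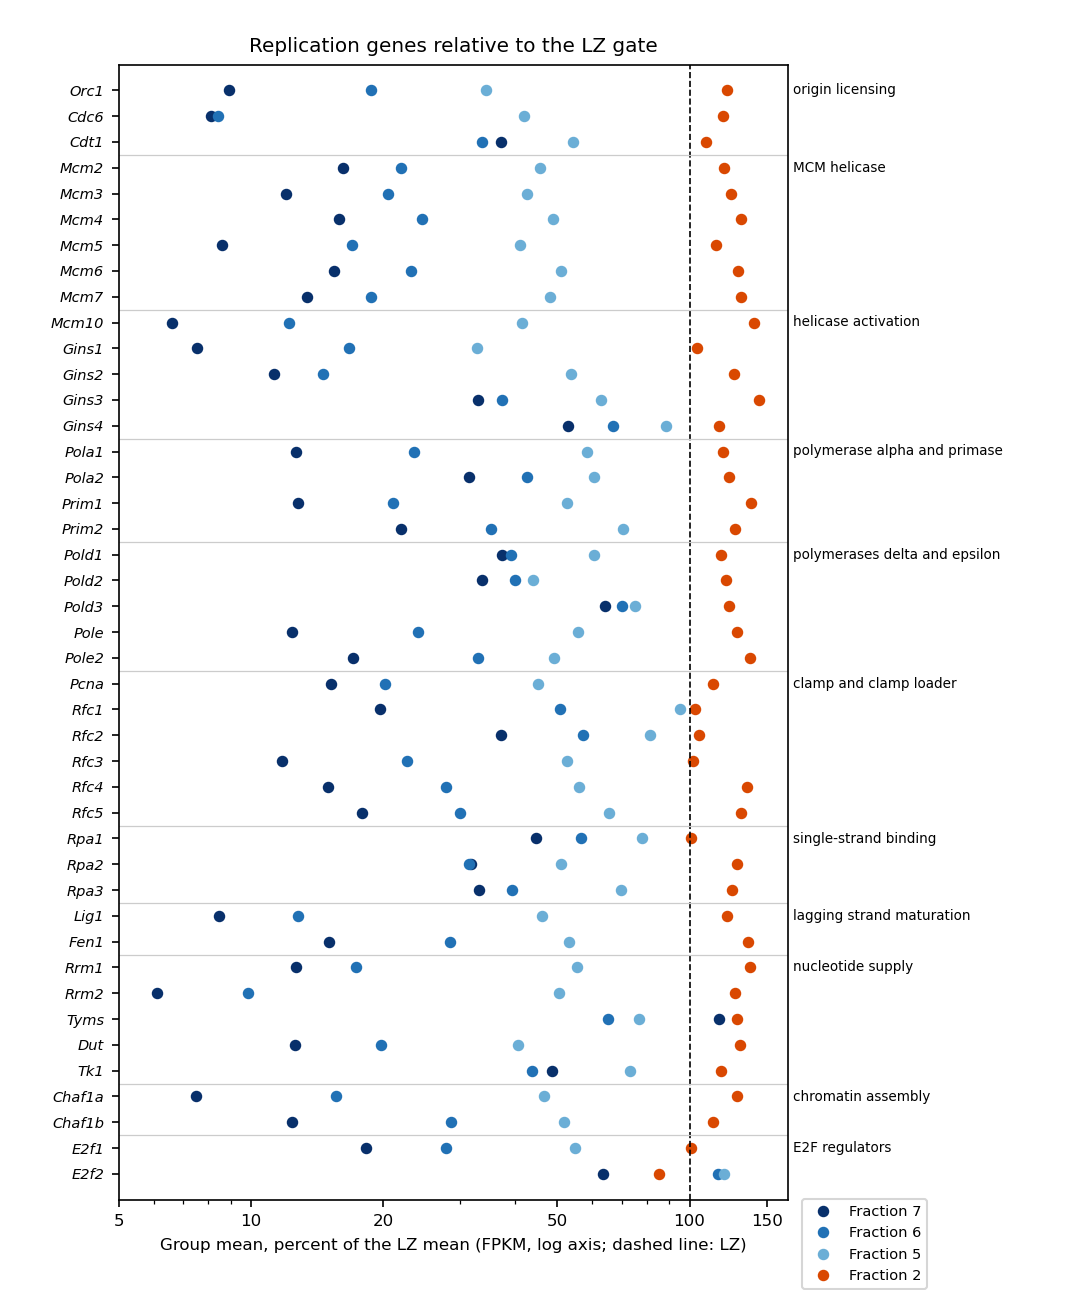
Group mean FPKM of each of the 43 replication genes in Fractions 7, 6, 5 and 2 as a percentage of its mean in LZ (log axis; dashed line, LZ at 100%), grouped by role. Fraction 7 points lie between 6.10% and 117%, and most genes run from Fraction 7 on the left to Fraction 2 on the right; Tyms and E2f2 do not.

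Each pair of gates was compared with limma on log2(FPKM + 1) across 11266 genes, with a Benjamini-Hochberg adjusted p under 0.05 as the threshold. Changes are the first gate named minus the second. A gene that fell was lower in the first gate, and a gene that rose was higher there. Between Fraction 7 and LZ, 42 of 43 replication genes fell and none rose, where 38.0% of all genes tested fell and 24.1% rose. The median log2 change of the 43 genes was -2.52, against -0.10 over all genes, with a range from -3.90 for Rrm2 to 0.07 for Tyms. Lig1 had the smallest adjusted p (1.01e-12), followed by Mcm7 (2.16e-11), Pcna (2.29e-11) and Mcm2 (3.04e-11). Tyms was the gene not called.

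Between Fraction 5 and Fraction 3, 40 of 43 genes fell and none rose, where 19.5% of all genes fell and 9.99% rose. The median change was -0.94 against -0.03 over all genes. E2f2, Gins4 and Tyms were not called. Between Fraction 5 and Fraction 2, 39 genes fell, where 27.1% of all genes did, and 1 rose, where 16.6% of all genes did. The gene that rose was E2f2, and Gins4, Tyms and Rfc1 were not called. The median change was -1.24 against -0.04 over all genes. These comparisons share the Fraction 5 libraries.

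Between Fraction 6 and Fraction 5, 36 of 43 genes fell and none rose, where 10.4% of all genes fell and 7.07% rose, and the median change was -0.89 against -0.0021 over all genes. E2f2, Gins1, Gins4, Pold2, Pold3, Pole2 and Tyms were not called. Between Fraction 7 and Fraction 6, 28 genes fell and none rose, where 13.9% of all genes fell and 7.37% rose, and the median change was -0.55 against -0.05 over all genes. The 15 genes not called were Cdc6, Cdt1, Mcm10, Gins2, Gins3, Gins4, Prim2, Pold1, Pold2, Pold3, Rpa2, Rpa3, Rrm1, Tyms and Tk1. This count fell to 15 when Fractions 7 and 6 were fitted alone, and 11 genes kept their call under every alternative: Mcm3, Mcm4, Mcm5, Rfc1, Rfc2, Rfc3, Rfc4, Lig1, Fen1, Chaf1b and E2f2.

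The fewest replication genes were called between Fraction 2 and Fraction 3. In Fraction 2, 3 of the genes rose relative to Fraction 3 (Pold2, Orc1 and Gins3), where 9.17% of all genes rose, and E2f2 fell, where 6.45% of all genes fell. The median change was 0.22 against 0.04 over all genes. Libraries of Fraction 2 lay above all those of Fraction 3 for 28 of the 43 genes, against 28.7% of all genes tested. The call of E2f2 was the only one of the 4 that held under every alternative, and leaving out either Fraction 2 library, or Fraction 3 library 3, left E2f2 alone past the threshold.

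Library 2 was the highest of the Fraction 5 libraries for 31 of the 43 genes, against 46.5% of all genes tested. Even so, every Fraction 5 library was below every library of Fractions 2, 3 and LZ for 40 of the genes, against 19.7% of all genes tested, and above every library of Fractions 6 and 7 for 38, against 19.8%. For 28 genes the libraries of Fraction 7, Fraction 6, Fraction 5 and the light zone gates were all separate and in that order, against 4.78% of all genes tested.

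**Figure D2:**
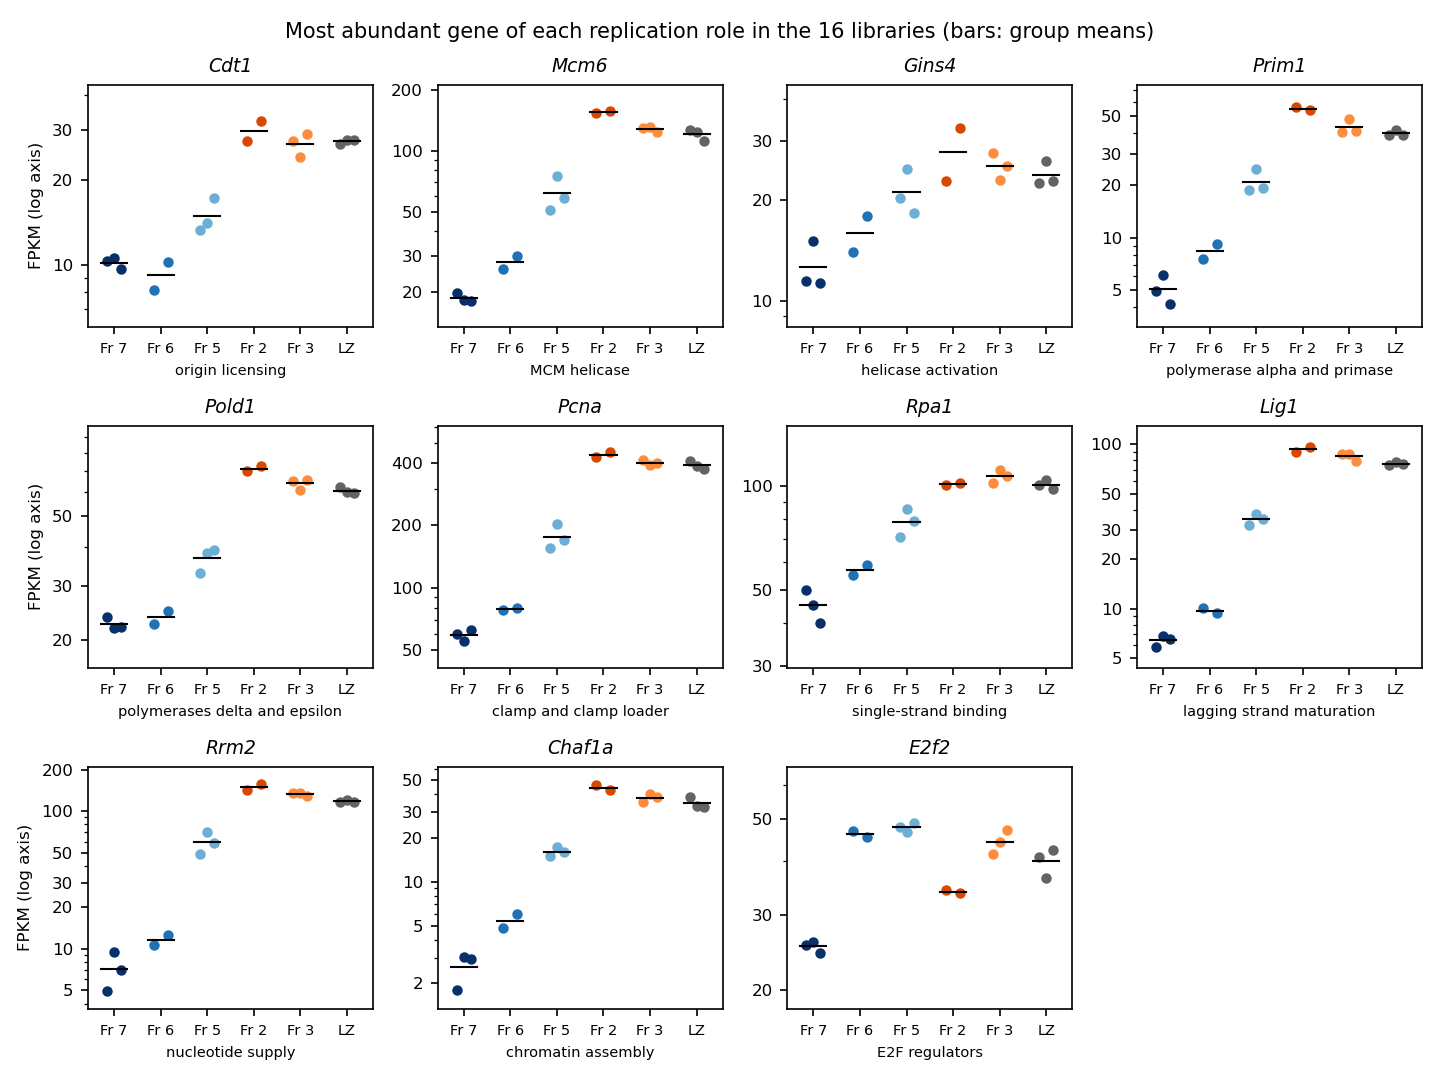
FPKM (log axis) of the most abundant gene of each of 11 replication roles, with 1 point per library, gates along the x axis (Fr 7 is Fraction 7, and so on) and bars at group means. For 7 of the panels no Fraction 7 library reaches Fraction 6 and no Fraction 6 library reaches Fraction 5. Cdt1, Gins4, Pold1 and E2f2 are the panels in which neighbours among Fractions 7, 6 and 5 overlap.

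All 3 genes of origin licensing fell between Fraction 7 and LZ, between Fraction 6 and Fraction 5 and between Fraction 5 and Fraction 3. CDT1 brings the MCM ring to the origin, and its gene was the most abundant of the 3. Cdt1 had 10.3, 10.6 and 9.68 FPKM in Fraction 7, 8.14 and 10.2 FPKM in Fraction 6 and 13.2, 14.1 and 17.3 FPKM in Fraction 5. Cdt1 had 27.6 and 32.2 FPKM in Fraction 2, 27.6, 24.1 and 29.0 FPKM in Fraction 3 and 26.7, 27.8 and 27.7 FPKM in LZ. Fractions 7 and 6 overlapped each other, and both lay below Fraction 5, which lay below the light zone gates. It fell between Fraction 5 and Fraction 3 (log2 change -0.82, SE 0.11, adjusted p = 0.000106) and between Fraction 6 and Fraction 5 (log2 change -0.64, SE 0.12, adjusted p = 0.00215), and was not called between Fraction 7 and Fraction 6 (0.14, adjusted p = 0.463).

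Cdc6, whose product is the ATPase that works with the origin recognition complex to load the ring, was already near its lowest level in Fraction 6. Cdc6 had 0.850, 1.16 and 1.42 FPKM in Fraction 7, 1.07 and 1.31 FPKM in Fraction 6 and 4.87, 6.86 and 6.04 FPKM in Fraction 5. Cdc6 had 17.5 and 15.9 FPKM in Fraction 2, 15.9, 15.7 and 14.0 FPKM in Fraction 3 and 15.1, 13.1 and 14.1 FPKM in LZ. Fractions 7 and 6 overlapped, and the change between Fraction 6 and Fraction 5 was the third largest of the 43 genes (log2 change -1.65, SE 0.14, adjusted p = 2.39e-06). The ratio of Cdt1 to Cdc6 was 6.82 to 12.1 in Fraction 7, 7.64 to 7.82 in Fraction 6, 2.05 to 2.86 in Fraction 5 and 1.77 to 2.13 in LZ. Orc1, the largest subunit of the origin recognition complex, had 0.340, 0.414 and 0.558 FPKM in Fraction 7, 1.03 and 0.804 FPKM in Fraction 6 and 1.67, 2.04 and 1.32 FPKM in Fraction 5. Orc1 had 5.93 and 6.02 FPKM in Fraction 2, 4.55, 3.95 and 4.16 FPKM in Fraction 3 and 5.19, 4.63 and 4.87 FPKM in LZ. It was one of the 3 genes higher in Fraction 2 than in Fraction 3 (log2 change 0.42, SE 0.13, adjusted p = 0.0373). That call was lost without either Fraction 2 library or without Fraction 3 library 3. Orc1 fell between Fraction 7 and LZ by 2.04 (log2). For a gene this low the added 1 FPKM makes the fitted change smaller than the ratio of the means.

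Origin licensing and ring genes were all lower in Fraction 7 than in LZ, and the DNA just before the start sites of some of them is shown. In the 250 bases upstream of each start site, E2F-like sites were searched for on both strands as TTTCCCGC, TTTCGCGC, TTTGCCGC and TTTGGCGC. They were present in 8 of 42 windows of the replication genes (19%), covering 36 genes, and in 1.86% of all 32851 windows of the same length. The 8 genes with a match were Orc1, Cdc6, Mcm5, Mcm6, Mcm7, Gins3, Pola1 and Rfc3. A match is a run of letters, not a site shown to be bound. Another Mcm7 window (chr5:138171267-138171516) held no match, and Mcm4 had no window to search. The windows of Cdc6 and of the 3 ring genes with a match, with the matches in capitals, are given 5′ to 3′ in the direction of the gene from RefSeq on GRCm38.p6.
Cdc6 (chr11:98907901-98908150, plus strand): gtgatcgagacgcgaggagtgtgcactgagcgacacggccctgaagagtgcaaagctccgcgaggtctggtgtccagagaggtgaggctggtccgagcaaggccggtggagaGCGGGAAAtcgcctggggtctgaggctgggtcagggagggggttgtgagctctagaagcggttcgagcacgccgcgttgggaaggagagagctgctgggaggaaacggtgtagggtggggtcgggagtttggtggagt
Mcm5 (chr8:75109259-75109508, plus strand): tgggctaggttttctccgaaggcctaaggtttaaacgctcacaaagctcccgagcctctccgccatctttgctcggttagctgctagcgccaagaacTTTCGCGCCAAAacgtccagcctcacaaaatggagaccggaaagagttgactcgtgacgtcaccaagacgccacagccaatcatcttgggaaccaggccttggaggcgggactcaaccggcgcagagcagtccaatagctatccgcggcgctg
Mcm6 (chr1:128359706-128359955, minus strand): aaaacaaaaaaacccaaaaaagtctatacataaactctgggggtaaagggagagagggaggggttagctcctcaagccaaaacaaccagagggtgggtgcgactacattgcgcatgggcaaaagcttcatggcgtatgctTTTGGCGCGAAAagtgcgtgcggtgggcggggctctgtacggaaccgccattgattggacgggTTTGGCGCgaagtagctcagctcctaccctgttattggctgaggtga
Mcm7 (chr5:138171884-138172133, minus strand): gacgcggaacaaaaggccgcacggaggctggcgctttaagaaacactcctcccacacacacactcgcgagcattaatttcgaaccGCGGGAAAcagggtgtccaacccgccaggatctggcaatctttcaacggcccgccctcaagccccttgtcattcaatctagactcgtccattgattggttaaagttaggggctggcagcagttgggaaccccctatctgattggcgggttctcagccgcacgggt
Mcm5 held 2 matches that overlap on opposite strands, Mcm6 held 3, of which 2 overlap, and Cdc6 and Mcm7 held 1 each, as the complement GCGGGAAA. The match nearest the start ended 39 bases before it in Mcm6, 130 bases in Cdc6, 141 bases in Mcm5 and 157 bases in Mcm7. The sequence CCAAT was in 54.8% of the replication windows and 33.8% of all windows, and GGGCGG, the GC box, in 64.3% and 32.7%, both strands counted.

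The 6 subunits of the MCM ring changed as a block. Mcm6, the most abundant, had 19.7, 18.3 and 18.1 FPKM in Fraction 7, 26.1 and 30.1 FPKM in Fraction 6 and 51.1, 75.2 and 58.6 FPKM in Fraction 5. Mcm6 had 155 and 158 FPKM in Fraction 2, 129.7, 131 and 124 FPKM in Fraction 3 and 127, 123 and 112 FPKM in LZ. Fractions 7, 6 and 5 did not overlap each other or the light zone gates. All 6 subunits fell between Fraction 5 and Fraction 3, between Fraction 6 and Fraction 5, between Fraction 7 and Fraction 6 and between Fraction 7 and LZ, with median changes of -1.19, -1.05, -0.57 and -2.73. None was called between Fraction 2 and Fraction 3, where the changes lay between 0.14 and 0.29. Mcm2 had 14.8, 15.4 and 13.1 FPKM in Fraction 7, 19.7 and 19.5 FPKM in Fraction 6 and 37.0, 44.1 and 40.6 FPKM in Fraction 5. Mcm2 had 107 and 107 FPKM in Fraction 2, 105, 96.1 and 90.2 FPKM in Fraction 3 and 95.2, 84.4 and 87.4 FPKM in LZ. It fell by 1.24 on the log2 scale between Fraction 5 and Fraction 3 (SE 0.08, adjusted p = 1.57e-06), with no overlap. Mcm7 had 14.2, 17.6 and 16.8 FPKM in Fraction 7, 21.8 and 23.6 FPKM in Fraction 6 and 52.2, 64.9 and 57.5 FPKM in Fraction 5. Mcm7 had 158 and 158 FPKM in Fraction 2, 126, 135 and 129 FPKM in Fraction 3 and 124, 122 and 116 FPKM in LZ. It fell between Fraction 5 and Fraction 2 (log2 change -1.43, SE 0.10, adjusted p = 3.01e-07). Mcm7 shares exon bases with Ap4m1 and Cops6 on the opposite strand, and the library kit does not mark strand, so that reads there cannot be assigned. Mcm4, which fell between Fraction 5 and Fraction 2 with nearly as small an adjusted p (log2 change -1.40, SE 0.10, adjusted p = 3.62e-07), had 11.1, 11.5 and 10.3 FPKM in Fraction 7, 17.8 and 16.2 FPKM in Fraction 6 and 29.6, 39.5 and 32.3 FPKM in Fraction 5 and 93.7 and 87.4 FPKM in Fraction 2, 72.4, 76.2 and 72.7 FPKM in Fraction 3 and 69.2, 71.0 and 67.7 FPKM in LZ.

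The summed FPKM of the 6 subunits was 80.0 to 87.9 in Fraction 7 and 592 to 653 in LZ, but the mix changed little. Mcm6 made up 22.5% of the sum in Fraction 7 and 19.4% in LZ, Mcm7 19.4% and 19.5%, Mcm3 16.4% and 18.2%, Mcm2 17.3% and 14.3%, and Mcm4 13.2% and 11.2%. Mcm5 moved most, at 9.35 to 12.5% of the sum in Fraction 7 libraries and 16.9 to 17.8% in LZ libraries. The most and least abundant subunits of a library differed by 1.67 to 2.63 times in Fraction 7 and 1.72 to 1.83 times in LZ. Mcm5 itself fell by 3.42 on the log2 scale between Fraction 7 and LZ (SE 0.11, adjusted p = 4.58e-11).

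Genes that help to activate the helicase split into a steep and a shallow set. Mcm10 and Gins1 stood at 6.62% and 7.55% of the LZ mean in Fraction 7, whereas Gins3 and Gins4 stood at 32.9% and 52.9%. Gins4, the most abundant, had 11.4, 15.1 and 11.3 FPKM in Fraction 7, 14.0 and 17.9 FPKM in Fraction 6 and 20.2, 24.8 and 18.3 FPKM in Fraction 5. Gins4 had 22.9 and 32.8 FPKM in Fraction 2, 27.7, 23.0 and 25.2 FPKM in Fraction 3 and 22.6, 26.2 and 22.9 FPKM in LZ. Fraction 7 overlapped Fraction 6, and Fraction 5 overlapped Fractions 2 and 3. Fraction 6 lay below Fraction 5 in every library, but the difference was not called (log2 change -0.38, SE 0.17, adjusted p = 0.154). Of the 6 comparisons, Gins4 was past the threshold only between Fraction 7 and LZ (log2 change -0.88, SE 0.15, adjusted p = 0.000219). Gins1, a subunit of the same 4-protein complex, was at 2.62, 2.31 and 0.638 FPKM in Fraction 7, 3.68 and 4.54 FPKM in Fraction 6 and 6.99, 8.43 and 8.73 FPKM in Fraction 5, and at 29.4 and 21.7 FPKM in Fraction 2, 28.1, 20.7 and 27.6 FPKM in Fraction 3 and 26.1, 26.0 and 21.8 FPKM in LZ. The ratio of Gins4 to Gins1 was 4.37 to 17.7 in Fraction 7 and 0.866 to 1.05 in LZ, a measure that rests on low Gins1 values in Fraction 7. Gins3 was higher in Fraction 2 than in Fraction 3 (log2 change 0.45, SE 0.14, adjusted p = 0.0493), with 12.9 and 11.1 FPKM in Fraction 2 and 9.25, 8.02 and 8.18 FPKM in Fraction 3. That call was lost without either Fraction 2 library or without Fraction 3 library 3.

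Primase lays down the RNA primer that DNA polymerase alpha extends. Prim1, its catalytic subunit, had 4.97, 6.12 and 4.15 FPKM in Fraction 7, 7.55 and 9.18 FPKM in Fraction 6 and 18.6, 24.7 and 19.3 FPKM in Fraction 5. Prim1 had 55.9 and 53.7 FPKM in Fraction 2, 40.2, 48.0 and 40.8 FPKM in Fraction 3 and 38.9, 41.6 and 38.6 FPKM in LZ. Fractions 7, 6 and 5 were again separate and below the light zone gates. All 4 genes of this group (Pola1, Pola2, Prim1 and Prim2) fell between Fraction 5 and Fraction 3, between Fraction 6 and Fraction 5 and between Fraction 7 and LZ. Pola1, the polymerase subunit, and Prim1 were at 12.7% and 12.8% of LZ in Fraction 7, and Prim2 and Pola2, the accessory subunits, at 22.0% and 31.5%.

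Polymerases delta and epsilon copy most of the genome, and their genes did not move alike. Pole, the catalytic subunit of polymerase epsilon, and Pole2 were at 12.4% and 17.1% of LZ in Fraction 7, and Pold1, Pold2 and Pold3, of polymerase delta, at 37.3%, 33.6% and 64.2%. Pold1, the catalytic subunit and the most abundant, had 23.7, 22.0 and 22.1 FPKM in Fraction 7, 22.6 and 24.8 FPKM in Fraction 6 and 32.8, 38.1 and 39.1 FPKM in Fraction 5. Pold1 had 69.8 and 72.6 FPKM in Fraction 2, 65.2, 60.9 and 65.5 FPKM in Fraction 3 and 62.3, 60.0 and 59.3 FPKM in LZ. Fractions 7 and 6 overlapped, and Pold1 fell between Fraction 6 and Fraction 5 (log2 change -0.60, SE 0.08, adjusted p = 0.000112) but was not called between Fraction 7 and Fraction 6 (-0.07, adjusted p = 0.612). Pold2 was already near its lowest level in Fraction 5. It had 13.0, 11.8 and 13.5 FPKM in Fraction 7, 14.5 and 15.96 FPKM in Fraction 6 and 14.7, 17.8 and 17.8 FPKM in Fraction 5. Pold2 had 47.3 and 44.6 FPKM in Fraction 2, 37.2, 32.6 and 32.9 FPKM in Fraction 3 and 41.7, 35.9 and 36.6 FPKM in LZ. Fractions 6 and 5 overlapped (-0.13, adjusted p = 0.44), while Fraction 5 was well below Fraction 3 (log2 change -0.99, SE 0.09, adjusted p = 9.03e-06). Pold2 was also the gene most clearly higher in Fraction 2 than in Fraction 3 (log2 change 0.42, SE 0.10, adjusted p = 0.0151). That call was lost when either Fraction 2 library or Fraction 3 library 3 was left out.

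PCNA is the ring that clamps polymerases to DNA, and Pcna was the most abundant of the 43 genes. It had 59.9, 55.3 and 62.9 FPKM in Fraction 7, 77.8 and 80.0 FPKM in Fraction 6 and 156, 203 and 171 FPKM in Fraction 5. Pcna had 430.1 and 450.3 FPKM in Fraction 2, 416, 393 and 400.2 FPKM in Fraction 3 and 408, 388 and 376 FPKM in LZ. No library of Fraction 7, 6 or 5 overlapped one of a higher gate. Pcna fell between Fraction 5 and Fraction 3 (log2 change -1.19, SE 0.08, adjusted p = 2.1e-06), between Fraction 6 and Fraction 5 (log2 change -1.14, SE 0.09, adjusted p = 2.27e-06) and, by less, between Fraction 7 and Fraction 6 (log2 change -0.41, SE 0.09, adjusted p = 0.00681).

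The clamp is opened by replication factor C, and its largest subunit, Rfc1, kept most of its level in Fraction 5. Rfc1 had 12.0, 13.5 and 10.4 FPKM in Fraction 7, 31.2 and 30.3 FPKM in Fraction 6 and 54.2, 59.8 and 59.0 FPKM in Fraction 5. Rfc1 had 61.5 and 63.2 FPKM in Fraction 2, 65.3, 74.9 and 66.5 FPKM in Fraction 3 and 58.6, 61.1 and 62.6 FPKM in LZ. Fraction 5 overlapped the LZ libraries, Fraction 6 was below it, and Fraction 7 was lower again. Rfc1 was not called between Fraction 5 and Fraction 2 (-0.11, adjusted p = 0.359), its fall between Fraction 5 and Fraction 3 (-0.25, adjusted p = 0.037) was lost under quantile normalization and median-ratio scaling, and it gave the smallest adjusted p of the 43 genes between Fraction 7 and Fraction 6 (log2 change -1.30, SE 0.09, adjusted p = 7.42e-07). Rfc3, a small subunit, had 6.26, 7.65 and 5.20 FPKM in Fraction 7, 13.1 and 11.4 FPKM in Fraction 6 and 23.7, 33.1 and 28.7 FPKM in Fraction 5. Rfc3 had 55.2 and 55.8 FPKM in Fraction 2, 58.2, 54.9 and 62.8 FPKM in Fraction 3 and 54.5, 55.1 and 52.9 FPKM in LZ. It fell by 1.03 between Fraction 5 and Fraction 3 (SE 0.12, adjusted p = 5.48e-05), where the change of Rfc1 was -0.25. The ratio of Rfc1 to Rfc3 was 1.76 to 1.99 in Fraction 7, 2.38 to 2.65 in Fraction 6, 1.81 to 2.29 in Fraction 5, 1.11 to 1.13 in Fraction 2, 1.06 to 1.37 in Fraction 3 and 1.07 to 1.18 in LZ.

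Rfc2 was the most abundant of the loader genes, with 50.05, 57.2 and 54.3 FPKM in Fraction 7, 81.1 and 84.7 FPKM in Fraction 6 and 109, 125 and 118 FPKM in Fraction 5 and 151 and 153 FPKM in Fraction 2, 165, 146 and 151 FPKM in Fraction 3 and 145, 141 and 148 FPKM in LZ. It fell between Fraction 7 and Fraction 6 (log2 change -0.61, SE 0.08, adjusted p = 6.13e-05). Rfc2 shares exon bases with Lat2 on the opposite strand, which was at 161, 163 and 166 FPKM in Fraction 7 and 197, 186 and 211 FPKM in LZ. The ratio of Pcna to Rfc2 was 0.967 to 1.20 in Fraction 7 and 2.53 to 2.82 in LZ.

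Replication protein A coats the single strands that the helicase leaves behind. Rpa1, its large subunit, was among the genes that changed least in proportion, at 44.7% of LZ in Fraction 7. Rpa1 had 49.98, 45.2 and 40.0 FPKM in Fraction 7, 55.0 and 58.9 FPKM in Fraction 6 and 71.1, 85.6 and 79.2 FPKM in Fraction 5. Rpa1 had 101 and 102 FPKM in Fraction 2, 102, 111 and 107 FPKM in Fraction 3 and 100.3, 104 and 98.1 FPKM in LZ. Fractions 7, 6 and 5 were separate from each other and below the light zone gates, and the fall between Fraction 7 and LZ was 1.15 on the log2 scale (SE 0.08, adjusted p = 3.65e-08). Rpa2 and Rpa3 were at 31.7% and 33.1% of LZ in Fraction 7. Rpa2 did not differ past the threshold between Fraction 7 and Fraction 6 (0.01, adjusted p = 0.963), and its ratio to Rpa1 was 0.212 to 0.231 in Fraction 7, 0.170 to 0.175 in Fraction 6 and 0.275 to 0.335 in LZ.

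DNA ligase I seals, and the flap nuclease FEN1 trims, the fragments of the lagging strand. Lig1 had the smallest adjusted p of the 43 genes in 4 of the 6 comparisons. It had 5.88, 6.83 and 6.58 FPKM in Fraction 7, 10.1 and 9.43 FPKM in Fraction 6 and 32.4, 37.8 and 35.3 FPKM in Fraction 5. Lig1 had 89.8 and 96.4 FPKM in Fraction 2, 87.2, 87.0 and 79.0 FPKM in Fraction 3 and 75.1, 77.9 and 75.6 FPKM in LZ. Libraries varied little within a gate and no gate from Fraction 7 to Fraction 5 overlapped another. Lig1 fell between Fraction 5 and Fraction 3 (log2 change -1.24, SE 0.07, adjusted p = 4.9e-07), between Fraction 6 and Fraction 5 (log2 change -1.75, SE 0.08, adjusted p = 1.68e-08), between Fraction 7 and Fraction 6 (log2 change -0.53, SE 0.08, adjusted p = 0.000329) and between Fraction 7 and LZ (log2 change -3.38, SE 0.07, adjusted p = 1.01e-12). Fen1 stood at 15.1% of LZ in Fraction 7, against 8.44% for Lig1.

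Among genes of nucleotide supply, the subunits of ribonucleotide reductase, which makes deoxynucleotides, had the largest falls between Fraction 7 and LZ and between Fraction 6 and Fraction 5. Rrm2, the subunit that cycles with S phase, had 4.93, 9.50 and 7.07 FPKM in Fraction 7, 10.6 and 12.5 FPKM in Fraction 6 and 48.6, 70.6 and 58.8 FPKM in Fraction 5. Rrm2 had 144 and 156 FPKM in Fraction 2, 136, 135 and 129 FPKM in Fraction 3 and 116, 119.8 and 117 FPKM in LZ. The step between Fraction 6 and Fraction 5 was the largest of the 43 genes (log2 change -2.25, SE 0.19, adjusted p = 2.4e-06), as was that between Fraction 7 and LZ (log2 change -3.90, SE 0.17, adjusted p = 2.86e-10). Rrm1, the partner subunit, was at 17.4% of LZ in Fraction 6, where Rrm2 was at 9.84%. The ratio of Rrm2 to Rrm1 was 0.558 to 0.930 in Fraction 7, 0.844 to 0.959 in Fraction 6, 1.42 to 1.52 in Fraction 5 and 1.51 to 1.72 in LZ. Dut, which removes dUTP, gave the largest fall of this group between Fraction 5 and Fraction 2 (log2 change -1.65, SE 0.13, adjusted p = 6.08e-07) and between Fraction 5 and Fraction 3 (log2 change -1.31, SE 0.11, adjusted p = 7.07e-06). Tk1, the thymidine kinase of the salvage pathway, was at 48.6% of LZ in Fraction 7 and 43.8% in Fraction 6, and was not called between those gates (0.14, adjusted p = 0.431). Tk1 shares exon bases with Afmid on the opposite strand.

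Tyms, the thymidylate synthase gene, was the exception in Fraction 7. It had 10.2, 18.1 and 32.4 FPKM in Fraction 7, 11.4 and 11.3 FPKM in Fraction 6 and 14.2, 13.5 and 12.2 FPKM in Fraction 5. Tyms had 21.6 and 22.9 FPKM in Fraction 2, 16.8, 18.1 and 16.8 FPKM in Fraction 3 and 16.6, 19.5 and 15.96 FPKM in LZ. The Fraction 7 libraries spanned more than the other 13 did together, and library 3 was the highest of all. Every Fraction 6 library lay below those of Fraction 5, and these lay below every light zone library. In the main model Tyms was called in none of the 6 comparisons (0.64, adjusted p = 0.143 between Fraction 7 and Fraction 6, and 0.07, adjusted p = 0.82 between Fraction 7 and LZ). With the compared gates fitted alone, Tyms was lower in Fraction 5 than in Fraction 2 (log2 change -0.70, SE 0.09, adjusted p = 0.00397). Such fits also put it lower in Fraction 5 than in Fraction 3 (-0.35, adjusted p = 0.0202) and higher in Fraction 2 than in Fraction 3 (0.35, adjusted p = 0.046). Without Fraction 7 library 1 it was higher in Fraction 7 than in Fraction 6 (log2 change 1.04, adjusted p = 0.00196) and than in LZ (0.47, adjusted p = 0.0327). Fraction 7 library 1 by itself differed from LZ by -0.71 (log2), a value from 1 library with no spread of its own. The pseudogene row Tyms-ps had 3.87, 5.63 and 10.1 FPKM in Fraction 7 and 4.58, 4.31 and 5.60 FPKM in LZ, and the number of genes listed at 0 was 8775, 6452 and 5000 in Fraction 7 libraries 1, 2 and 3 and 9024 to 9106 in LZ. Reads of a gene and a near-identical copy may be split by the authors' counting, and the part of these measures in the Tyms values was not tested.

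Chromatin assembly factor 1 places histones on new DNA. Chaf1a, its large subunit, had 1.80, 3.06 and 2.95 FPKM in Fraction 7, 4.80 and 5.99 FPKM in Fraction 6 and 15.1, 17.2 and 16.02 FPKM in Fraction 5. Chaf1a had 46.0 and 42.8 FPKM in Fraction 2, 35.2, 40.4 and 38.1 FPKM in Fraction 3 and 38.1, 33.0 and 32.7 FPKM in LZ. Fractions 7, 6 and 5 were separate from each other and below the light zone gates. Chaf1a shares exon bases with Ubxn6 on the opposite strand, which was at 23.9, 18.8 and 17.7 FPKM in Fraction 7 and 11.3, 13.6 and 11.5 FPKM in LZ. Chaf1b, the middle subunit, had 3.59, 3.10 and 3.52 FPKM in Fraction 7, 7.02 and 8.67 FPKM in Fraction 6 and 13.3, 14.3 and 15.04 FPKM in Fraction 5. It fell by 1.00 on the log2 scale between Fraction 7 and Fraction 6 (SE 0.12, adjusted p = 3.61e-05), with no overlap.

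The E2F factors of the list parted. E2f1 followed the machinery, with 4.51, 5.42 and 4.64 FPKM in Fraction 7, 8.10 and 6.74 FPKM in Fraction 6 and 14.7, 13.5 and 15.5 FPKM in Fraction 5 and 28.4 and 25.6 FPKM in Fraction 2, 28.1, 27.1 and 27.8 FPKM in Fraction 3 and 31.4, 23.1 and 25.4 FPKM in LZ. It fell between Fraction 5 and Fraction 3 (log2 change -0.88, SE 0.11, adjusted p = 6.01e-05), between Fraction 6 and Fraction 5 (log2 change -0.89, SE 0.12, adjusted p = 0.000145) and between Fraction 7 and LZ (log2 change -2.23, SE 0.11, adjusted p = 7.96e-10). E2f2 did not. It had 25.6, 26.0 and 24.4 FPKM in Fraction 7, 46.9 and 45.5 FPKM in Fraction 6 and 48.0, 46.8 and 49.1 FPKM in Fraction 5. E2f2 had 34.2 and 33.6 FPKM in Fraction 2, 41.5, 44.3 and 47.3 FPKM in Fraction 3 and 40.8, 36.5 and 42.3 FPKM in LZ. Fractions 6 and 5 were level (-0.05, adjusted p = 0.693) and both lay above every Fraction 2 library. E2f2 was higher in Fraction 5 than in Fraction 2 (log2 change 0.49, SE 0.07, adjusted p = 0.000126), lower in Fraction 2 than in Fraction 3 (log2 change -0.38, SE 0.07, adjusted p = 0.00485), and lower in Fraction 7 than in Fraction 6 (log2 change -0.84, SE 0.07, adjusted p = 3.55e-06) and in LZ (log2 change -0.63, SE 0.07, adjusted p = 1.48e-06). Between Fraction 5 and Fraction 3 it was not called (0.11, adjusted p = 0.227), and quantile normalization made it a rise. The ratio of E2f2 to E2f1 was 4.79 to 5.66 in Fraction 7, 5.80 to 6.74 in Fraction 6, 3.16 to 3.46 in Fraction 5, 1.20 to 1.32 in Fraction 2, 1.48 to 1.70 in Fraction 3 and 1.30 to 1.67 in LZ.

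**Figure D3:**
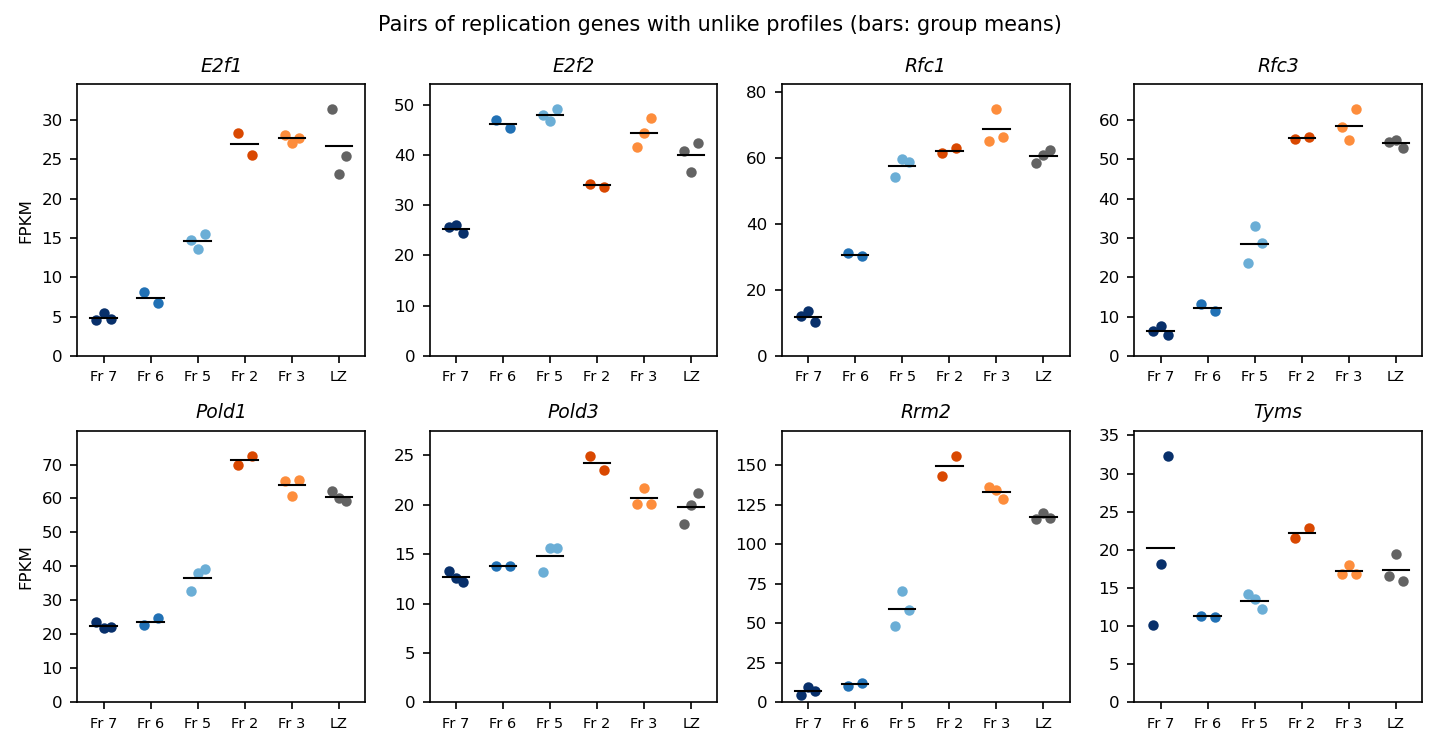
FPKM (linear axis from 0) of 4 pairs of replication genes that share a role but not a profile, with 1 point per library and bars at group means. E2f2 is at 45.5 to 49.1 FPKM in Fractions 6 and 5, where E2f1 is at 6.74 to 15.5 FPKM; Rfc1 is near its LZ level in Fraction 5 and Rfc3 is not; and Tyms spans 10.2 to 32.4 FPKM within Fraction 7.

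A wider list of 44 genes that work with the machinery behaved in the same general way, although the list was not tested as a set. Between Fraction 7 and LZ, 43 fell and none rose, where 38.0% of all genes tested fell, and Mcm9 was the gene not called. Among those with the smallest adjusted p were Clspn, a checkpoint adaptor at forks (log2 change -3.60, SE 0.10, adjusted p = 1.47e-11), Slbp, which binds histone mRNA (log2 change -2.22, SE 0.07, adjusted p = 2.16e-11), Uhrf1 and Dnmt1, which copy DNA methylation (-3.65 and -2.48), and Timeless, of the fork protection complex (-2.87). Between Fraction 5 and Fraction 3, 35 fell and 1 rose, where 19.5% of all genes fell and 9.99% rose. The gene that rose was Pold4, the small subunit of polymerase delta, with means of 296 FPKM in Fraction 5 and 236 FPKM in Fraction 3 (log2 change 0.34, SE 0.10, adjusted p = 0.0269). Between Fraction 5 and Fraction 2, 38 fell, where 27.1% of all genes fell and 16.6% rose. The 3 that rose were Pold4 (0.78, adjusted p = 0.000121), Samhd1, which degrades deoxynucleotides (0.45, adjusted p = 0.000561), and Rrm2b, the reductase subunit used outside S phase (0.41, adjusted p = 0.00949).

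Between Fraction 6 and Fraction 5, 29 of the 44 fell, where 10.4% of all genes did, and Dctd, a deoxycytidylate deaminase, rose (log2 change 0.81, SE 0.19, adjusted p = 0.0084). Clspn again had the smallest adjusted p (log2 change -1.75, SE 0.11, adjusted p = 3.77e-07). Between Fraction 7 and Fraction 6, 24 fell, where 13.9% of all genes did, led by Dck, the deoxycytidine kinase (log2 change -1.44, SE 0.11, adjusted p = 1.4e-06), and Rnaseh2c rose (0.45, adjusted p = 0.0153). Between Fraction 2 and Fraction 3, 8 of the 44 rose, where 9.17% of all genes did, and 3 fell, a share near the 6.45% of all genes that fell. Dctd was the clearest rise, with means of 8.11 FPKM in Fraction 2 and 2.70 FPKM in Fraction 3 (log2 change 1.32, SE 0.19, adjusted p = 0.00107), and Samhd1 the clearest fall, with means of 139.6 FPKM in Fraction 2 and 199 FPKM in Fraction 3 (log2 change -0.50, SE 0.08, adjusted p = 0.00208).

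Genes of mitosis, a list of 36, fell in the same comparisons as the replication genes, with steps of other sizes. Relative to LZ, their median was 9.57% in Fraction 7, 17.7% in Fraction 6 and 70.8% in Fraction 5, where the replication genes were at 15.5%, 27.8% and 53.2%. Between Fraction 5 and Fraction 3, 29 of 36 fell, where 19.5% of all genes tested fell, and their median was -0.63, beside -0.94 for the replication genes. Between Fraction 6 and Fraction 5 all 36 fell, where 10.4% of all genes did, with a median of -1.83, beside -0.89. Between Fraction 7 and Fraction 6, 24 fell, where 13.9% of all genes did, with a median of -0.61, beside -0.55. Examples are Plk1, a mitotic kinase (4.90 FPKM in Fraction 6 and 29.0 FPKM in Fraction 5, log2 change -2.34, SE 0.17, adjusted p = 8.91e-07), Kif20a, a kinesin of cytokinesis (-2.16), and Incenp, of the chromosomal passenger complex (-1.55). In Fraction 2, 3 of 36 rose relative to Fraction 3 (Ccnb1, Cenpf and Aurkb), a share near the 9.17% of all genes that did. The difference between the lists was not tested.

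**Figure D4:**
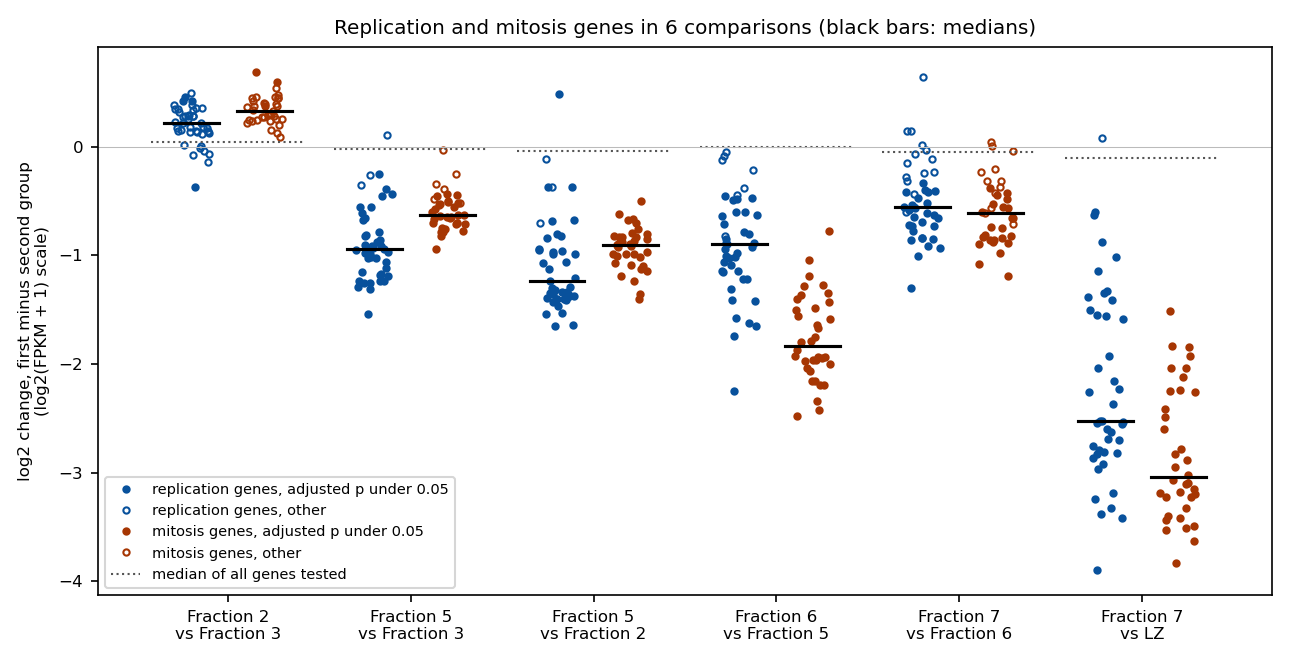
Log2 change (first gate minus second, log2(FPKM + 1) scale) of the 43 replication genes (blue) and 36 mitosis genes (brown) in 6 comparisons; filled points passed the threshold, black bars are list medians and dotted lines the median of all genes tested. The median of the replication genes is -0.94 and that of the mitosis genes -0.63 between Fraction 5 and Fraction 3, and -0.89 and -1.83 between Fraction 6 and Fraction 5.

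In the E2F and RB family, 16 genes beyond E2f1 and E2f2, 10 fell and 2 (Rb1 and Rbl2) rose between Fraction 7 and LZ, where 38.0% of all genes tested fell and 24.1% rose. E2f7 and E2f8, the atypical E2Fs that repress S-phase genes, fell with the machinery: E2f8 averaged 0.888 FPKM in Fraction 7 and 25.1 FPKM in LZ (log2 change -3.79, SE 0.10, adjusted p = 5.67e-12). Tfdp1, the dimer partner of E2Fs, also fell between those gates (log2 change -1.80, SE 0.10, adjusted p = 2.61e-09), as did Mybl2 (log2 change -3.19, SE 0.15, adjusted p = 5.83e-10). Rb1, the retinoblastoma protein that holds E2Fs inactive, averaged 14.4 FPKM in Fraction 7 and 6.60 FPKM in Fraction 6 (log2 change 1.03, SE 0.17, adjusted p = 0.000802). It was higher in Fraction 6 than in Fraction 5 as well (log2 change 0.75, SE 0.17, adjusted p = 0.00824) and in Fraction 7 than in LZ (log2 change 1.71, SE 0.16, adjusted p = 4.04e-07). Rbl2, the pocket protein of resting cells, was higher in Fraction 7 than in LZ (log2 change 0.72, SE 0.09, adjusted p = 1.16e-05). Rbl1, the pocket protein of cycling cells, was lower in Fraction 7 than in LZ (log2 change -1.36, SE 0.11, adjusted p = 1.42e-07).

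As a description, the genes outside the list whose log2 levels over the 16 libraries followed the mean profile of the 43 most closely were found among 7876 genes with a mean of at least 5 FPKM. They were Uhrf1 (Pearson r = 0.9985), Hnrnpa2b1, Acot7, Dtl, Gmnn, Timeless, Fignl1, Srsf3, Dazap1 and Gapdh (r = 0.9946). The 16 points share 6 gates, so such values are high for any gene that differs between the same gates. Gmnn, whose product blocks CDT1 from relicensing an origin, averaged 10.4 FPKM in Fraction 7 and 77.8 FPKM in LZ. Of the 43 genes, 41 had r of at least 0.9 with the mean profile, which includes them; Tyms had 0.27 and E2f2 0.45.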

How the data were processed

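RNA was isolated with TRIzol and libraries were made with a NEBNext Ultra kit, which does not mark strand, per the labels' protocols. Reads were aligned with TopHat2 2.0.8 to mm9 and turned into FPKM with Cufflinks 2.1.1, per the submitters' processing notes. The authors deposited FPKM, and counts were not used here. Libraries were grouped by their titles into 6 gates, and the 1 row that names no gene was dropped. From the deposited FPKM, log2(FPKM + 1) was computed for the 11266 genes that reached 1 FPKM in 2 or more libraries. limma 3.58.1 in R 4.3.3 fitted 1 model of 6 group means over 16 libraries with a variance trend. P-values were adjusted by Benjamini-Hochberg over all genes within each of 6 comparisons, with a threshold of 0.05. A change on this scale understates that of low genes. The model was tested on simulated data. True depth is unknown, so no counting interval is given.

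The members and lists were chosen with earlier results of these data known. Named genes are the most abundant of each role, up to 4 with the smallest adjusted p per comparison, those not called or going against the rest, and, from wider lists, up to 8 per comparison by adjusted p. Pairs of genes within a complex were chosen after their values were seen. Ticrr was found as 5730590G19Rik. Of the 43 genes, 13 share exon bases with another gene of GENCODE vM21 and 7 with a gene in the table. The promoters are RefSeq sequences on GRCm38.p6, another build than that of the files, matched by symbol for 36 of the 43 genes. Results were recomputed after median-ratio scaling or quantile normalization, with 0.1 as pseudocount, without a filter, with a filter of 5 FPKM in 2 libraries, with the compared groups alone, with the replicate number as a block, and with each library left out. Figures used Python 3.11.15, pandas 2.3.3, numpy 2.4.6 and matplotlib 3.10.9.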

Additional observations from a re-analysis of the deposited data

How the results depend on the processing

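All 42 calls between Fraction 7 and LZ held under every alternative run, as did 38 of 40 between Fraction 5 and Fraction 3, 37 of 40 between Fraction 5 and Fraction 2, 31 of 36 between Fraction 6 and Fraction 5, 11 of 28 between Fraction 7 and Fraction 6 and 1 of 4 between Fraction 2 and Fraction 3. Of the single-gene values under alternatives, 3129 kept direction and side of the threshold, 103 lost the call, 35 gained one and 1 reversed, Tyms between Fraction 7 and LZ with library 1 as the only Fraction 7 library (-0.711, against 0.0748 with all 3), a setting chosen after seeing the data. Between Fraction 2 and Fraction 3, 4 replication genes were called in the main model, 2 after quantile normalization, 2 with a pseudocount of 0.1, 2 with no filter, 11 with the groups alone and 1 to 3 when a library was left out. All genes called there numbered 1760, and 1108 with the groups alone and 660 to 1411 when a library was left out. Between Fraction 6 and Fraction 5, all genes called numbered 1968, and 1152 to 1817 when a library was left out, the lowest without Fraction 6 library 1 (1152) or 2 (1170). Between Fraction 7 and Fraction 6, replication genes called numbered 28, against 15 with the groups alone and 20 to 30 when a library was left out. All genes called there numbered 2393, against 1248 with the groups alone, 1589 with library 1 as the only Fraction 7 library and 1334 to 2491 when a library was left out. With library 1 as the only Fraction 7 library, the median change of the replication genes was -0.52 relative to Fraction 6 and -2.50 relative to LZ. Over all genes these medians were 0.01 and -0.04. Fits of the groups alone have fewer samples behind the spread. The cause of the differences was not tested for any setting.

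Scaling changed the balance of calls over all genes. The share of called genes that were higher was 58.7% between Fraction 2 and Fraction 3 and 45.4% after quantile normalization, 33.9% and 50.2% between Fraction 5 and Fraction 3, 38.0% and 52.3% between Fraction 5 and Fraction 2, 34.7% and 45.0% between Fraction 7 and Fraction 6, and 38.8% and 50% between Fraction 7 and LZ. Median-ratio scaling moved the median of all genes between Fraction 7 and LZ from -0.10 to 0.02, and that of the replication genes from -2.52 to -2.40. Deviations of same-numbered libraries from their gate means had correlations of -0.136 to 0.125. Each deviation is taken from a mean of only 2 or 3 libraries, so these values cannot show whether the numbers pair the libraries. With the replicate number as a block, 4, 40, 40, 38, 27 and 42 replication genes were called between Fractions 2 and 3, 5 and 3, 5 and 2, 6 and 5, 7 and 6, and Fraction 7 and LZ. Depth limits Orc1, Cdc6, Mcm10 and Gins1 most, which were under 1 FPKM in some libraries.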
